A study of Mus musculus with 16 samples.

Results

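Cholesterol handling was followed through 8 genes in RNA sequencing of mouse pulmonary endothelial cells (ECs). Hmgcs1, Sqle and Idi1 encode enzymes of cholesterol synthesis, Srebf2 and Insig1 belong to its control, Abca1 and Abcg1 export cholesterol, and Ch25h makes 25-hydroxycholesterol. They and the lists below were chosen by name, with earlier results of these data known. All 8 were found among the 54532 genes of the expression tables. Around them stood 96 further genes of 8 lists (synthesis, sterol sensing, uptake and transport, efflux and LXR, oxysterols, esterification and storage, the isoprenoid branch and fatty acid synthesis).

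The study examined lung injury after lipopolysaccharide (LPS), a component of bacterial outer membranes that triggers inflammation, and the part played in it by endothelial Fgfr1, a fibroblast growth factor receptor. In the first experiment, male wild-type C57/BL6J mice of 8 weeks received saline (n = 4) or 10 mg/kg LPS (n = 6) into the trachea. In the second, Fgfr1 iΔEC/iΔEC mice (n = 3), which carry VE-cadherin-CreERT2, were compared with their Fgfr1 loxP/loxP littermates (n = 3), which are described without it. Both groups of the second experiment were given tamoxifen and both received 2 mg/kg LPS, so that experiment held no saline group. Cre under this promoter acts in VE-cadherin-expressing cells once tamoxifen is given. The mice were adult, and their age in weeks and their strain are not given in the sources used here. Lungs were taken after 24 h in all 4 groups, and CD31+ CD45- cells were isolated with antibody-coated beads and sequenced in bulk. The labels do not say whether each library came from its own mouse, so the tests measure the spread between libraries. In bulk RNA, fewer cells of a type and less RNA per cell cannot be told apart.

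Cells obtain cholesterol by making it from acetyl-CoA through the mevalonate pathway or by taking up lipoproteins. When membrane cholesterol in the endoplasmic reticulum is low, SCAP escorts SREBP-2, the product of Srebf2, to the Golgi, where it is cleaved into a transcription factor for synthesis and uptake genes. Insig proteins hold SCAP back when sterols are plentiful. Oxysterols and certain synthesis intermediates activate the LXR receptors, which raise transcription of exporters such as Abca1 and Abcg1.

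Sequences at the Srebf2 and Hmgcs1 loci are shown because both hold the letters TCACNCCA, the core of the classical sterol regulatory element to which SREBPs bind. They are bases of the plus strand, from RefSeq on GRCm38.p6, 5′ to 3′. The Hmgcs1 stretch ends just before the RefSeq start (119690351). The Srebf2 stretch ends just before the annotated gene body, upstream of its RefSeq start (82147269). Capitals mark TCACNCCA and the box CCAAT, the element of NF-Y, a usual partner of SREBPs. On the minus strand that box reads ATTGG in the printed strand. The letters were chosen after the windows had been read, and the 2 motifs do not overlap in these stretches.
Hmgcs1, chr13:119690101-119690350: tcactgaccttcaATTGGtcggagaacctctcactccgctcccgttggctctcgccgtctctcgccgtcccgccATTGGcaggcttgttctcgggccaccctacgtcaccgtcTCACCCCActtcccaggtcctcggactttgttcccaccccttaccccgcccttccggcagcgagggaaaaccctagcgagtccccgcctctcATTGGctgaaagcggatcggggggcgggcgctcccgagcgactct
Srebf2, chr15:82147019-82147180: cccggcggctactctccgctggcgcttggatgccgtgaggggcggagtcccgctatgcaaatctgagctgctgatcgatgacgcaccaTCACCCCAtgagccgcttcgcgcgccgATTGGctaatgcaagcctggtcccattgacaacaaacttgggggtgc

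In the Hmgcs1 stretch TCACNCCA began 137 bases before the RefSeq start, and CCAAT occurred 3 times, each on the minus strand. The Srebf2 stretch held each motif once. RefSeq windows (250 bases before to 50 after a start) were present for 6 of the 8 genes, and CCAAT was found in those of Hmgcs1, Idi1, Srebf2 and Insig1. Of 16 synthesis genes with a window, 15 held CCAAT on either strand in at least 1 window. By window, that was 15 of 19 (78.9%) against 37.4% of all 32851 windows and 36.9% of the windows of genes tested after LPS. TCACNCCA was in 2 of the 19 synthesis windows (10.5%), those of Hmgcs1 and Msmo1, against 4.36% of all windows. A match describes letters and is not evidence of binding.

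An intron of Srebf2 also holds mmu-miR-33, a microRNA known for repressing Abca1. Its mature 5p strand (RefSeq, GRCm38.p6, chr15:82198127-82198147, plus strand) is shown with the seed, bases 2 to 8, in capitals.
mmu-miR-33-5p: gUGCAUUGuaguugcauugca

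Its hairpin had 2 reads in all 16 libraries together, so that its level was not measurable in these libraries. On GRCm38 the gene bodies lay at chr13:119690379-119708260 (Hmgcs1), chr15:59315077-59331192 (Sqle), chr13:8885501-8892451 (Idi1), chr15:82147181-82205379 (Srebf2) and chr5:28071363-28078662 (Insig1). Abca1 lay at chr4:53030787-53159895, Abcg1 at chr17:31057698-31115777 and Ch25h at chr19:34473786-34475135. All 8 are protein-coding genes. Hmgcs1, Idi1 and Ch25h each overlap a gene of the other strand (Gm48342, Gm48574 and Gm26902), and Abcg1 overlaps the rRNA gene Gm25447 on its own strand, as Srebf2 does Gm49502. Strandedness of the counting is not given in the sources used here, so reads in those overlaps cannot be told apart. Sqle, Insig1 and Abca1 overlap no annotated gene.

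Reads assigned to genes numbered 13478726 to 18807007 in the saline libraries and 17840221 to 19043015 in the LPS libraries. They numbered 15969575 to 17002788 in loxP/loxP and 16642177 to 16943522 in iΔEC/iΔEC. Values are FPKM, read numbers scaled for gene length and library size, and can be compared between genes. The library size behind the deposited values was not the number of reads assigned to genes. Fold changes are log2 differences of FPKM + 1, which understate the change of low genes. A gene was called at an adjusted p (Benjamini-Hochberg over all genes tested) at or under 0.05 in limma.

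Fgfr1 itself, the gene deleted in the second experiment, stood at 2.90, 2.91 and 2.60 FPKM in loxP/loxP and at 0.682, 1.41 and 1.15 FPKM in iΔEC/iΔEC. All 3 iΔEC/iΔEC libraries lay below all 3 controls (log2 fold change -0.88, SE 0.16; limma, unadjusted p = 0.00103, adjusted p = 0.962). In the first experiment Fgfr1 was at 5.52, 2.93, 2.82 and 3.17 FPKM after saline and at 1.05, 1.59, 1.69, 2.55, 1.51 and 2.49 FPKM after LPS. The LPS libraries again lay below the controls (log2 fold change -0.70, SE 0.20; limma, adjusted p = 0.0113).

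The cells were checked against markers. Endothelial genes were abundant in every library: their 10-gene list summed to 5236, 3160, 3870 and 3253 FPKM in saline 1 to 4 and to 1361, 3201, 2051, 3254, 2437 and 2982 FPKM in LPS 1 to 6. Cldn5, a tight-junction gene, was the most abundant of them, and none was at 0. After LPS, 6 of the 10 fell, among them Kdr, the VEGF receptor, and Cdh5, VE-cadherin (log2 fold changes -1.63 and -0.88), and none rose. Of all tested genes, 23.7% fell and 29.5% rose, and the marker counts below are to be read against these shares.

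Macrophage markers were higher after LPS in all libraries. The list summed to 1197, 535.2, 847.5 and 426.3 FPKM in saline 1 to 4 and to 4828, 4076, 2998, 3526, 4254 and 2227 FPKM in LPS 1 to 6. Of its 8 genes 7 rose, where 29.5% of all tested genes did, Lyz2 (lysozyme) being the most abundant. Marco was at 0 in saline 1, and Mrc1 was not called. The leukocyte list, which includes Ptprc, the gene of the CD45 antigen used to remove leukocytes, summed to between 71.5 and 238.3 FPKM after saline and between 772.7 and 1898 FPKM after LPS, and all 6 of its genes rose. Coro1a was the most abundant. Neutrophil genes rose in 6 of 8 cases, from sums of 74.05 to 1401 FPKM to sums of 1290 to 6653 FPKM, with S100a9 on top and Ly6g at 0 in saline 4. These markers moved with the LPS comparison, and their part in every difference below was not tested.

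Other lineages are set against the same shares of all tested genes, 23.7% lower and 29.5% higher. Of the lymphocyte list (Cd79a most abundant) 3 of 5 tested genes fell, of the fibroblast list (Col3a1) 4 of 6, and of the mural list (Acta2) 1 of 7. Lum, a fibroblast gene, was at 0 in saline 3. The lung epithelial list, led by Sftpc, had 1 of 10 genes higher and 2 lower. Its sums were 1079 to 2872 FPKM after saline and 373.2 to 1079 FPKM after LPS. The mural and epithelial counts lay under the shares of all genes. Some libraries stood apart. LPS 1 had the lowest endothelial mean and the highest macrophage and leukocyte means, saline 1 had the highest neutrophil mean of its group, and saline 3 was low in lymphocyte and fibroblast genes.

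**Figure D1:**
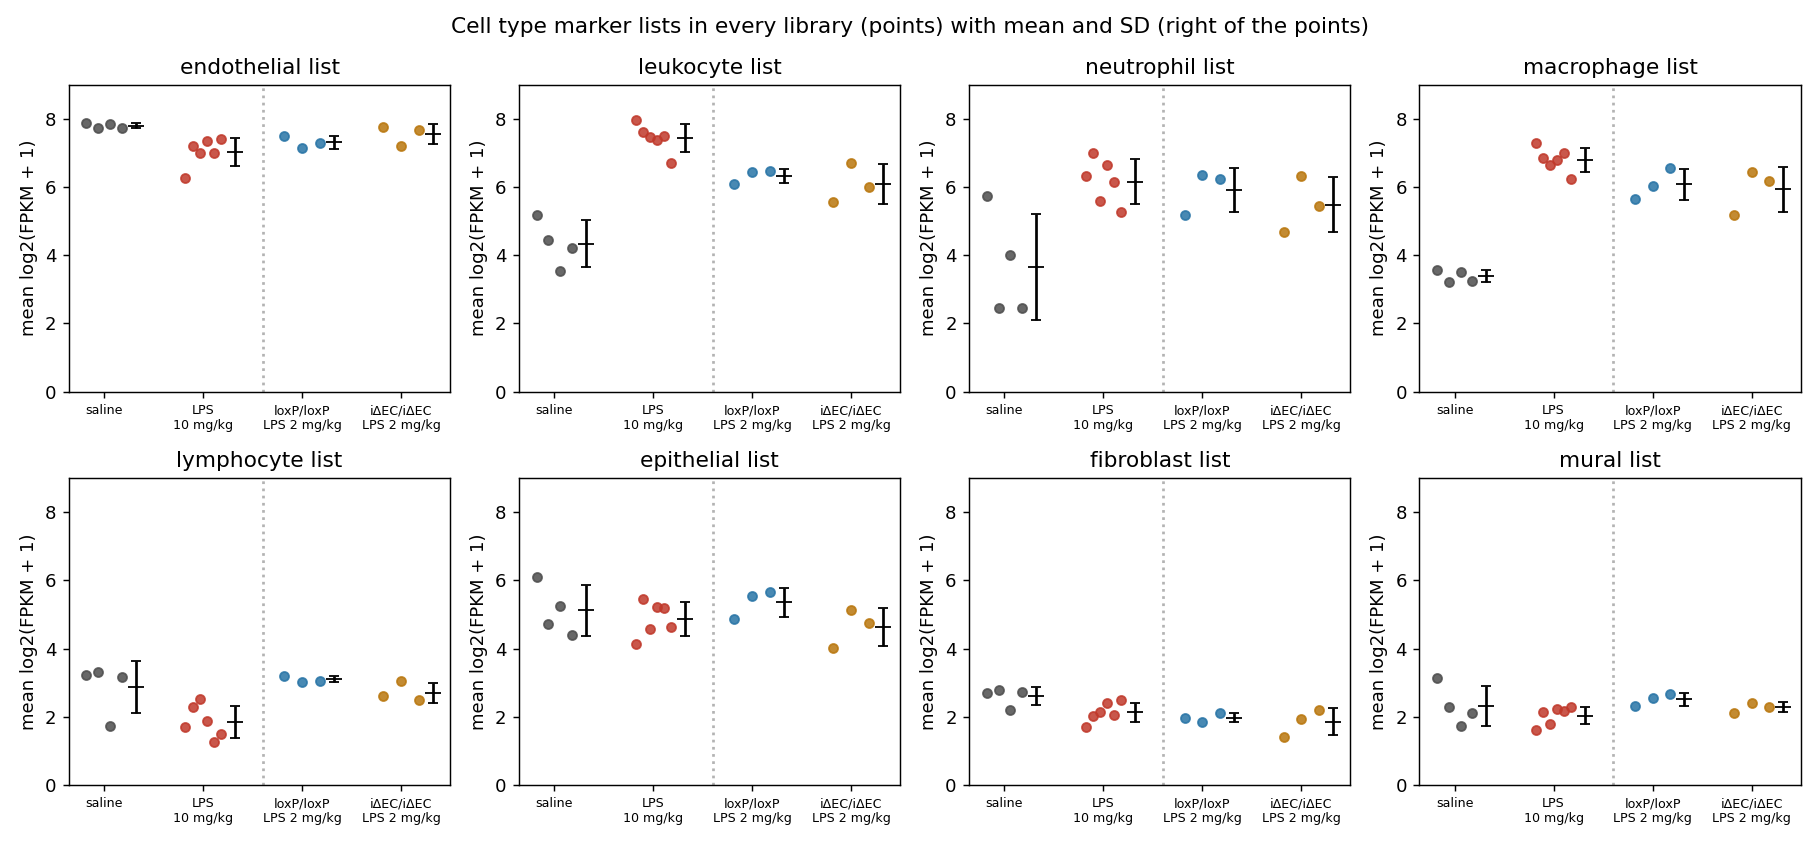
Mean log2(FPKM + 1) of 8 marker lists (vertical axis) in each library of the 4 groups (points, left to right in replicate order), with mean and SD beside them; the dotted line separates the 2 experiments. Macrophage means ran from 3.21 to 3.56 after saline and from 6.23 to 7.30 after 10 mg/kg LPS, and endothelial means from 7.72 to 7.87 and from 6.27 to 7.40.

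The first comparison asked what LPS changed in ECs of wild-type mice. Of the 8 genes, Ch25h, Sqle, Hmgcs1, Srebf2 and Abcg1 rose and Abca1 fell, while Idi1 and Insig1 did not pass the test. This must be read against a broad response, in which 53.2% of 14893 tested genes were called, 29.5% higher and 23.7% lower. The median log2 fold change of the 8 genes was 0.52, against 0.01 over all genes. Groups did not overlap for 3 of the 8 genes (Ch25h, Sqle and Hmgcs1, all higher), as for 39.4% of all genes (22.7% higher). A log2 change of at least 1 was reached by 2 of the 8, and by 18.7% of all genes.

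**Figure D2:**
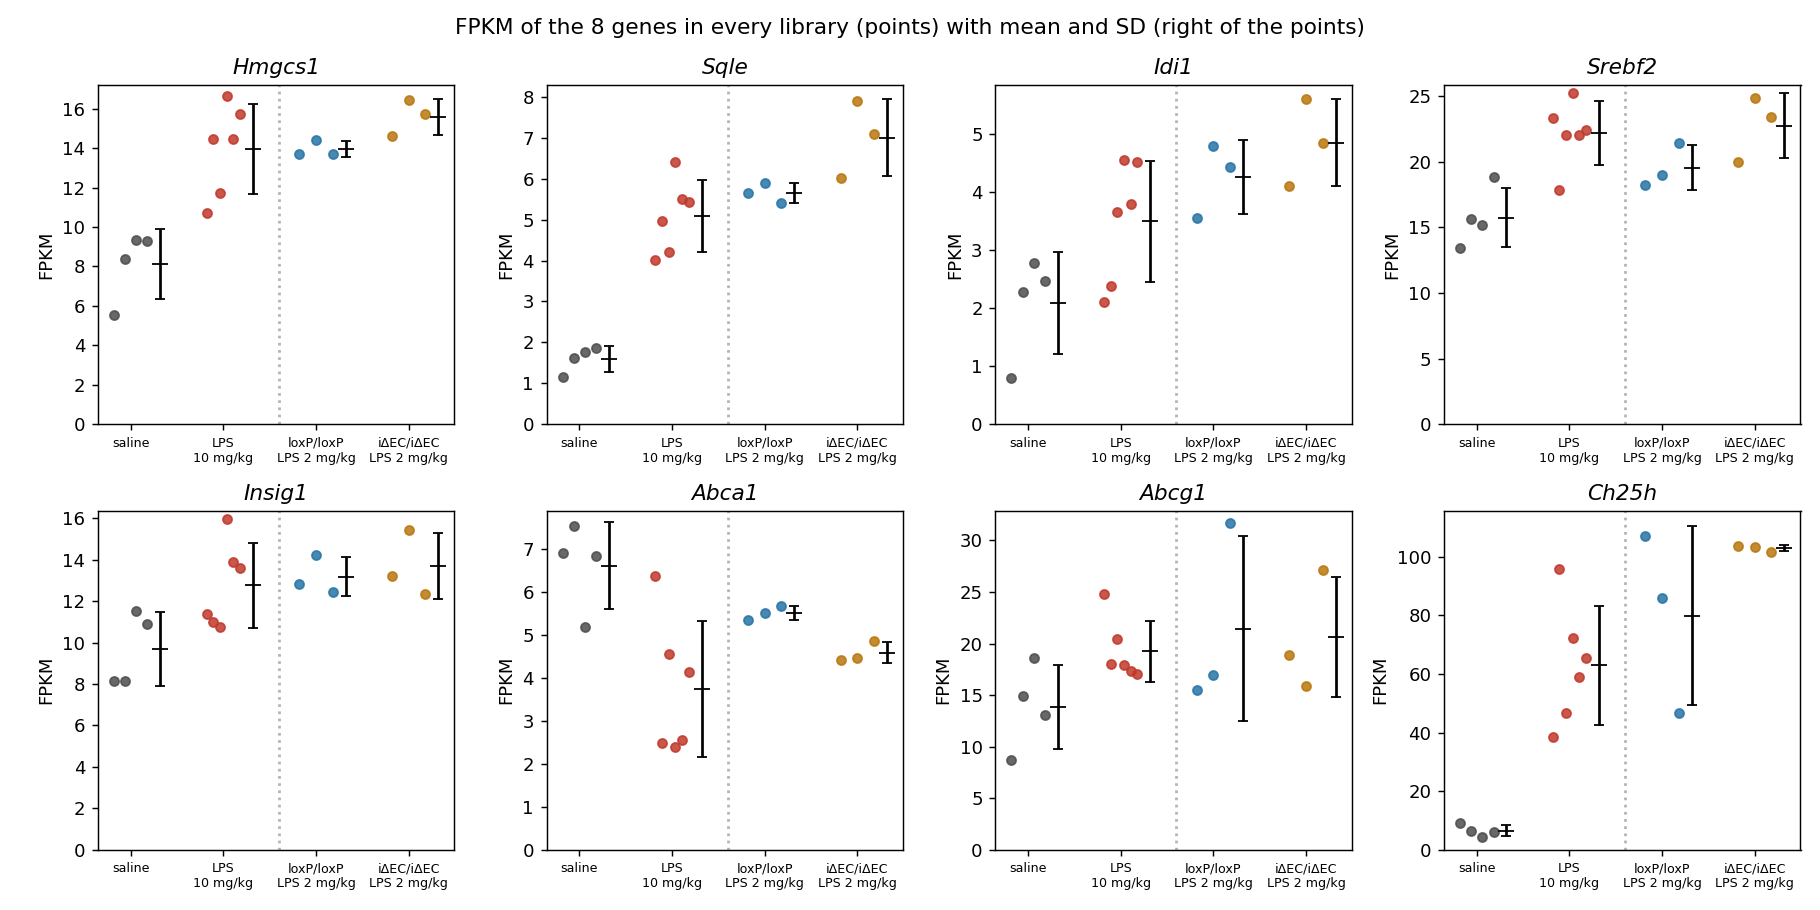
FPKM of the 8 genes (vertical axis, a linear scale from 0 for each gene) in each library (points, in replicate order), with mean and SD beside each group; the dotted line separates the 2 experiments, which were normalised separately. Ch25h was between 4.48 and 9.13 FPKM after saline and between 38.5 and 95.7 FPKM after 10 mg/kg LPS, and Sqle between 1.14 and 1.85 and between 4.02 and 6.40 FPKM.

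Sqle encodes squalene epoxidase, the first oxygen-requiring and a rate-limiting step of sterol synthesis. Its level was 1.14, 1.62, 1.77 and 1.85 FPKM in saline 1 to 4, and after LPS the lowest, median and highest values were 4.02, 5.20 and 6.40 FPKM. Every LPS library exceeded every saline library. The means were 1.596 ± 0.315 (SD, n = 4) and 5.09 ± 0.890 FPKM (SD, n = 6), a ratio of 3.19, with a log2 fold change of 1.23 (SE 0.14; limma, adjusted p = 4.11e-05). The reads behind a value numbered 84 to 202 after saline and 410 to 625 after LPS.

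Hmgcs1, the cytosolic HMG-CoA synthase that feeds the mevalonate pathway, stood at 5.51, 8.40, 9.32 and 9.28 FPKM after saline. After LPS it ranged from 10.7 to 16.7 FPKM with a median of 14.5. Saline 1 was the low library of its group, and the groups did not overlap. The log2 fold change was 0.72 (SE 0.16; limma, adjusted p = 0.00361) and 0.57 without saline 1 (adjusted p = 0.00638). With scaling on endothelial markers, which raised the median of all genes to 0.60, it was 1.41 (adjusted p = 0.000136).

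Idi1 encodes the isomerase that makes dimethylallyl diphosphate, a building block of all isoprenoids. It was measured at 0.798, 2.27, 2.78 and 2.46 FPKM after saline and between 2.11 and 4.55 FPKM (median 3.72) after LPS. LPS 1 and 2, at 2.11 and 2.37 FPKM, lay within the range of the saline libraries. The log2 fold change of 0.57 (SE 0.24) did not pass (limma, adjusted p = 0.0649), and its 95% interval ran from 0.04 to 1.09. It passed when LPS 1 was left out (0.67, adjusted p = 0.0357), when LPS 2 was (0.64, adjusted p = 0.050) and when saline 3 was (0.68, adjusted p = 0.049), whereas without saline 1 it was 0.33 (adjusted p = 0.181). With scaling on endothelial markers Idi1 was at 1.08 and called (adjusted p = 0.00150).

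The whole synthesis list moved mostly upward. Of 21 genes, 20 were tested, since Fdps, the farnesyl diphosphate synthase, lay under the filter with 4 to 33 reads. Of the 20, 13 rose, 1 fell and 6 were not called, where 29.5% of all genes rose and 23.7% fell, with a median log2 fold change of 0.59 against 0.01 over all genes. Relative to the median of all genes, the list's median was 0.58 as analysed, 0.57 after quantile normalisation and 0.59 when libraries were scaled on endothelial markers. The mean log2(FPKM + 1) over the 20 genes was 2.14, 2.34, 2.35 and 2.46 in saline 1 to 4, and 2.76, 2.90, 2.77, 3.08, 2.91 and 2.89 in LPS 1 to 6. No LPS library reached down to the saline range.

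The largest change in the list was that of Mvd, which decarboxylates mevalonate diphosphate. It stood at 3.90, 3.23, 2.83 and 4.54 FPKM after saline and at 44.9, 29.2, 25.4, 23.3, 24.3 and 18.5 FPKM after LPS (log2 fold change 2.59, SE 0.21; limma, adjusted p = 4.76e-06). LPS 1, the library with the highest macrophage and lowest endothelial means, was highest for Mvd, and LPS 6, with the lowest macrophage mean, was the lowest of its group. Between these extremes the libraries did not keep the same order for Mvd and for macrophage markers. For Hmgcs1 and Sqle, LPS 1 was instead the lowest of its group. The part of macrophages in these values was not tested.

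Cyp51, lanosterol demethylase, rose with a log2 fold change of 0.98, Msmo1, the sterol C4 methyl oxidase, by 0.89 and Fdft1, squalene synthase, by 0.85 (limma, adjusted p = 0.000579, 0.000728 and 0.00147). Tm7sf2, a sterol C14 reductase and the single gene of the list that fell, went from 1.59 to 2.23 FPKM down to 0.609 to 1.01 FPKM (log2 fold change -0.71; limma, adjusted p = 0.000415). It was not called lower when libraries were scaled on endothelial markers. Lbr, which encodes another enzyme with that activity, was at a log2 fold change of -0.26 and not called, and the late enzymes Sc5d and Dhcr7 were at 0.11 and -0.10 and likewise not called.

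**Figure D3:**
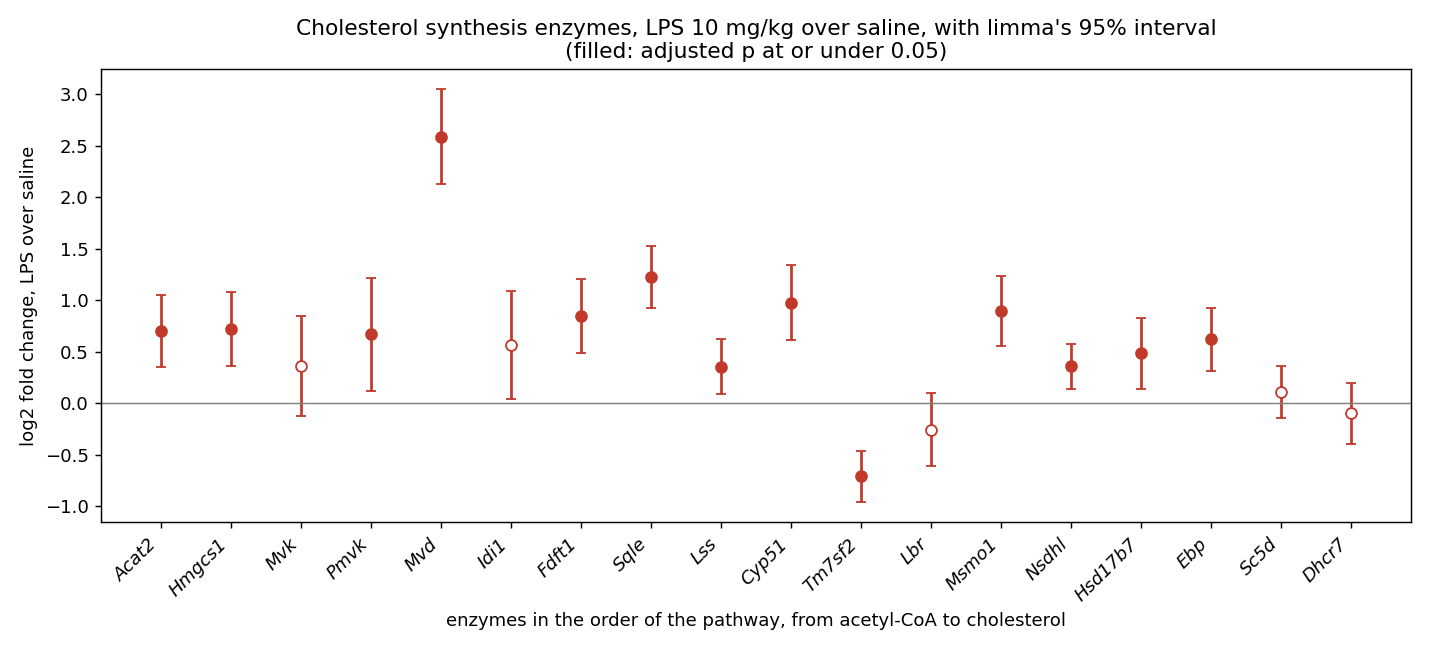
Log2 fold change, LPS over saline, of 18 cholesterol synthesis enzymes (horizontal axis, in pathway order; Tm7sf2 and Lbr share a step) with limma's 95% interval; filled points were called. Mvd stood at 2.59 and Sqle at 1.23, and the single called point below 0 was Tm7sf2 at -0.71.

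Srebf2 was measured at 13.4, 15.6, 15.2 and 18.8 FPKM after saline and between 17.9 and 25.3 FPKM (median 22.3) after LPS. LPS 2, at 17.9 FPKM, lay below saline 4, and the other 5 LPS libraries lay above all saline libraries. The means were 15.8 ± 2.27 (SD, n = 4) and 22.2 ± 2.44 FPKM (SD, n = 6), with a log2 fold change of 0.47 (SE 0.12; limma, adjusted p = 0.00758). After quantile normalisation the change was 0.16 and not called (adjusted p = 0.378), and with scaling on endothelial markers it was 1.20 (adjusted p = 0.00136).

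Insig1, both a retention factor for SCAP and a known SREBP target, was at 8.14, 8.15, 11.5 and 10.9 FPKM after saline and between 10.8 and 15.96 FPKM (median 12.5) after LPS. LPS 1 to 3 lay below the highest saline value. The log2 fold change of 0.37 (SE 0.14) narrowly missed the threshold (limma, adjusted p = 0.0506), with an interval from 0.05 to 0.69. It passed without saline 3 (0.45, adjusted p = 0.035), LPS 2 (0.40, adjusted p = 0.042) or LPS 3 (0.41, adjusted p = 0.0416), as well as with a filter at a mean of 1 FPKM (adjusted p = 0.0481) and with scaling on endothelial markers (1.07, adjusted p = 0.00125). After quantile normalisation it was at 0.18 (adjusted p = 0.316).

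Among the 13 genes of sterol sensing, 5 rose and 1 fell, beside 29.5% and 23.7% of all genes. These counts moved with the processing: 10 rose and 0 fell with scaling on endothelial markers, 1 rose and 3 fell after quantile normalisation, and 2 rose when saline 2 or LPS 4 was left out. Erlin1, a cholesterol-binding protein of the endoplasmic reticulum, had the largest change, from between 2.93 and 3.92 FPKM to between 7.90 and 12.1 FPKM (log2 fold change 1.28; limma, adjusted p = 2.04e-05). Nfe2l1, a cholesterol-sensing transcription factor, rose by 0.32 (limma, adjusted p = 0.0267), but was at -0.17 after quantile normalisation, and leaving out saline 2, saline 3, saline 4 or LPS 4 ended the call (adjusted p = 0.0647, 0.0738, 0.0569 and 0.0578). Mbtps1, the site-1 protease that cleaves SREBPs, fell by 0.37 (limma, adjusted p = 0.0143), and was at 0.34 with scaling on endothelial markers. That call was lost without saline 2 or saline 4 (adjusted p = 0.0560 and 0.0542). Srebf1, the sister gene of Srebf2 that acts mainly on fatty acid genes, was at 0.25 (limma, adjusted p = 0.0467), a call lost in 12 of 18 alternatives, among them limma-voom (adjusted p = 0.0555) and quantile normalisation (0.03, adjusted p = 0.792). Scap and Insig2 were at -0.05 and -0.18 and not called. The median of the list was 0.25, and -0.16 after quantile normalisation.

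Among genes of uptake, Mylip, a ubiquitin ligase whose transcription LXR raises, went from between 26.7 and 42.0 FPKM to between 12.9 and 15.6 FPKM (log2 fold change -1.06; limma, adjusted p = 7.45e-05). It lost its call with scaling on endothelial markers. Lrp1, a large endocytic receptor also abundant in macrophages, rose by 2.02, with its highest LPS value in LPS 1 at 74.7 FPKM and its lowest in LPS 2 at 23.3 FPKM. Lrp8, the apolipoprotein E receptor 2, was at 0 to 0.0863 FPKM after saline and at 0.832 to 2.50 FPKM after LPS, which is 1.14 on the log2 scale (adjusted p = 0.000299 in limma). Of the 14 tested genes of uptake and transport 6 rose and 3 fell, where 29.5% and 23.7% of all genes did. With scaling on endothelial markers 8 rose and 1 fell, and after quantile normalisation 6 rose and 5 fell. The median was 0.06, and -0.22 after quantile normalisation.

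Abca1, which loads cellular cholesterol onto lipid-poor apolipoprotein A-I, went the other way. It was at 6.91, 7.54, 5.19 and 6.85 FPKM after saline and at 6.38, 2.48, 4.56, 2.41, 2.55 and 4.14 FPKM after LPS. LPS 1 lay inside the saline range, and the other 5 LPS libraries lay below all saline libraries. The log2 fold change was -0.73 (SE 0.22; limma, adjusted p = 0.0169), and -0.87 without LPS 1 (adjusted p = 0.00313). The call was lost without saline 2 (-0.68, adjusted p = 0.0506), and with scaling on endothelial markers the change was -0.08 (adjusted p = 0.863).

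Abcg1, which moves cholesterol to HDL particles, was at 8.74, 14.9, 18.6 and 13.1 FPKM after saline and between 17.0 and 24.8 FPKM (median 18.0) after LPS. Saline 3 lay within the LPS range, LPS 1 was the highest library and saline 1 the lowest. The log2 fold change was 0.48 (SE 0.18; limma, adjusted p = 0.0430). Leaving out any library other than saline 3 or LPS 6 ended the call, and without saline 1 the change was 0.30 (adjusted p = 0.108). Without a filter on low values it was not called either (adjusted p = 0.0911). After quantile normalisation it was at 0.20 and not called (adjusted p = 0.428), and with scaling on endothelial markers at 1.20 (adjusted p = 0.00535).

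Of the 12 tested genes of efflux and LXR, 5 rose and 3 fell, against 29.5% and 23.7% of all genes. The median was 0.17 as analysed and -0.22 after quantile normalisation. Nr1h3, which encodes LXRα and is strongly expressed in macrophages, was at 5.02, 5.98, 4.65 and 8.30 FPKM after saline and at 75.3, 75.1, 53.9, 45.1, 69.8 and 33.2 FPKM after LPS (log2 fold change 3.06, SE 0.24; limma, adjusted p = 3.97e-06). Its lowest LPS value was in LPS 6, which also had the lowest macrophage mean of that group. Nr1h2, which encodes LXRβ, was at -0.18 and not called (limma, adjusted p = 0.123), and it was called in opposite directions by the other scalings, at -0.62 after quantile normalisation (adjusted p = 0.000249) and at 0.57 with scaling on endothelial markers (adjusted p = 0.0432). Smpdl3a, a phosphodiesterase and known LXR target, rose by 1.62, and Abca7, a relative of Abca1, by 0.94. Pltp, the phospholipid transfer protein that remodels HDL, went from between 322 and 426 FPKM to between 119 and 230 FPKM, which gave a log2 fold change of -1.07 (adjusted p = 0.000971 in limma) and was not called with scaling on endothelial markers. Under that scaling 8 genes of the list rose and none fell, and after quantile normalisation 3 rose and 5 fell. Abcg4, Abcg5, Abcg8 and Apoa1 lay under the filter.

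Ch25h, cholesterol 25-hydroxylase, which makes an oxysterol with antiviral and immune roles, had the largest change of the 8 genes. It was at 9.13, 6.43, 4.48 and 6.10 FPKM after saline and at 38.5, 95.7, 46.7, 72.3, 59.1 and 65.3 FPKM after LPS. Each LPS value exceeded the highest saline value at least 4-fold. The means were 6.53 ± 1.93 (SD, n = 4) and 62.9 ± 20.2 FPKM (SD, n = 6), a ratio of 9.63, and the log2 fold change was 3.06 (SE 0.24; limma, adjusted p = 4.39e-06). LPS 1, highest in macrophage and lowest in epithelial markers of its group, was the lowest LPS library for Ch25h, and leaving it out gave 3.19. LPS 2, the highest for Ch25h, had the highest neutrophil and epithelial means of its group (7.01 and 5.45). The part of these cells in the change of Ch25h was not tested. Activated macrophages also express Ch25h.

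Cyp7b1, which hydroxylates 25-hydroxycholesterol further toward the ligand of GPR183, rose from between 0.355 and 1.03 FPKM to between 1.55 and 2.76 FPKM (log2 fold change 0.99; limma, adjusted p = 0.000403). Gpr183, the receptor of that ligand, was at 0.25 and not called. Cyp39a1, an oxysterol hydroxylase, fell by 0.45 (limma, adjusted p = 0.0112) and was at 0.08 with scaling on endothelial markers. Of the 5 tested oxysterol genes 2 rose and 1 fell, against 29.5% and 23.7% of all genes.

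Esterification and storage showed the highest median of the 8 lists, 0.96, which was 0.58 after quantile normalisation and 1.70 with scaling on endothelial markers. Of its 7 genes 5 rose and none fell, where 29.5% of all genes rose. Plin2, the coat protein of lipid droplets, was at 11.8 to 18.5 FPKM after saline and at 107 to 191 FPKM after LPS (3.17 on the log2 scale; adjusted p = 8.63e-07 in limma). Soat1 and Soat2 esterify cholesterol for storage. Soat1 went from between 2.19 and 2.53 FPKM to between 5.61 and 10.6 FPKM, and Soat2 from between 0.102 and 2.73 FPKM to between 6.86 and 18.7 FPKM (log2 fold changes 1.29 and 2.70; limma, adjusted p = 4.2e-05 and 7.93e-05). Both were highest in LPS 1. Lipa, the lysosomal acid lipase that releases cholesterol from its esters, rose by 0.96 (limma, adjusted p = 0.000148).

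Genes of neighbouring branches were counted in the same way, against 29.5% of all genes higher and 23.7% lower. Of 12 isoprenoid branch genes, which use the same precursors for dolichol, ubiquinone and prenyl groups, 2 rose, Nus1 (0.48) and Dhdds (0.31), the subunits of the dolichol-making transferase, and 10 were not called. Nus1 lost its call in 9 of 18 alternatives and Dhdds in 8, and none of the list rose without saline 2, saline 4, LPS 4 or LPS 5 (0 each). After quantile normalisation 1 rose and 4 fell, and with scaling on endothelial markers 7 rose. Of 12 genes of fatty acid synthesis, 2 rose and 6 fell (4 and 1 with scaling on endothelial markers, and 1 rose when saline 2, 3 or 4 or LPS 2 or 4 was left out), with a median of -0.33, and that median was 0.25 with scaling on endothelial markers, where the median of all genes was 0.60. Acacb, the mitochondrial acetyl-CoA carboxylase, was at 5.75, 6.08, 5.77 and 6.02 FPKM after saline and between 0.733 and 1.88 FPKM after LPS (log2 fold change -1.58; limma, adjusted p = 1.1e-05). The desaturases Scd2, Fads2 and Scd1 fell by 1.27, 0.92 and 0.82 on the log2 scale, and lost their calls with scaling on endothelial markers.

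**Figure D4:**
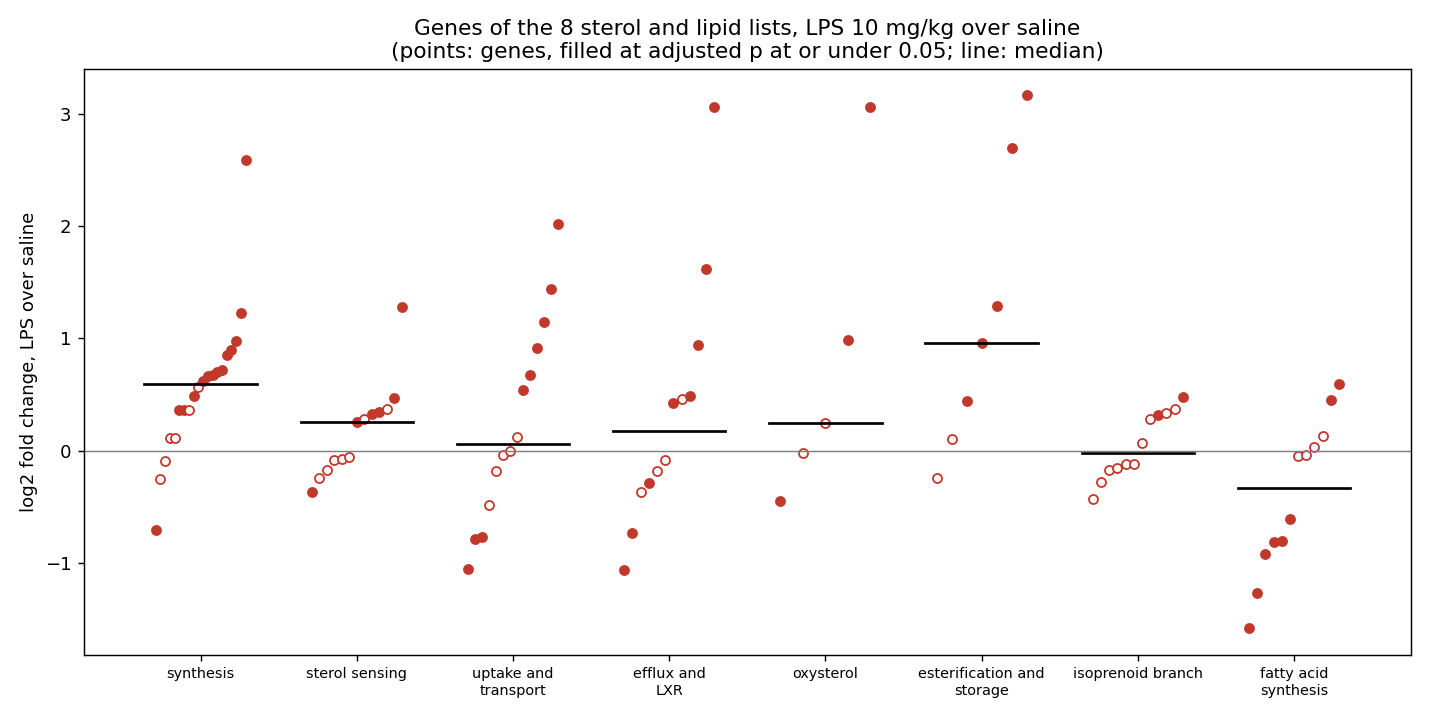
Log2 fold change, LPS over saline (vertical axis), of the tested genes of 8 sterol and lipid lists, including the 8 genes (points, sorted within each list and filled where called), with each list's median as a line. The synthesis median was 0.59, that of esterification and storage 0.96 and that of fatty acid synthesis -0.33.

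The second comparison asked what loss of endothelial Fgfr1 changed when all mice had received LPS. No gene passed, neither among the 8 nor among the 14945 tested (0%), and the smallest adjusted p in limma was 0.742, while 661 genes (4.42%) had an unadjusted p under 0.05. Limma-voom on read numbers called 0 genes as well. The values are therefore given with their intervals.

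Sqle was at 5.65, 5.90 and 5.42 FPKM in loxP/loxP and at 6.02, 7.91 and 7.10 FPKM in iΔEC/iΔEC, and Hmgcs1 at 13.7, 14.4 and 13.7 against 14.6, 16.4 and 15.8 FPKM. For both genes the groups did not overlap. Their log2 fold changes were 0.26 (95% interval -0.02 to 0.54) and 0.15 (-0.07 to 0.37). Idi1, at 3.56, 4.79 and 4.42 against 4.10, 5.60 and 4.83 FPKM, overlapped between the groups (0.15, interval -0.19 to 0.50). Its value was 0.05 without loxP/loxP replicate 1, 0.06 without iΔEC/iΔEC replicate 2 and 0.25 without iΔEC/iΔEC replicate 1. Within the 3 same-numbered pairs, Sqle, Hmgcs1 and Idi1 were each higher in the iΔEC/iΔEC library, and a block on the pair lowered the SE of Idi1 from 0.14 to 0.090 without a call (limma, adjusted p = 0.706).

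Srebf2 stood at 18.2, 19.0 and 21.5 FPKM in loxP/loxP and at 20.01, 24.9 and 23.4 FPKM in iΔEC/iΔEC (0.21, interval -0.08 to 0.49). Insig1 was at 12.8, 14.2 and 12.4 against 13.2, 15.4 and 12.4 FPKM (0.05, interval -0.23 to 0.32). Its value was -0.04 without iΔEC/iΔEC replicate 2 and 0.11 without iΔEC/iΔEC replicate 3. Srebf2 and Insig1 overlapped between the groups, and Srebf2 was higher in iΔEC/iΔEC within each of the 3 pairs. With scaling on endothelial markers, Hmgcs1, Idi1, Srebf2 and Insig1 were at -0.08, -0.04, -0.03 and -0.18, where the median of all genes was -0.18. Under that scaling Sqle was at 0.053, Abca1 at -0.42, Abcg1 at -0.25 and Ch25h at 0.20.

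Abca1 was lower in every iΔEC/iΔEC library, at 4.42, 4.48 and 4.88 FPKM against 5.36, 5.51 and 5.67 FPKM. Its log2 fold change was -0.22 (interval -0.44 to -0.01; limma, unadjusted p = 0.0460, adjusted p = 0.962). It was the single member whose unadjusted p was under 0.05. Groups did not overlap for 3 of the 8 genes, against 10.1% of all genes.

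Abcg1 was at 15.5, 17.0 and 31.7 FPKM in loxP/loxP and at 18.9, 15.9 and 27.1 FPKM in iΔEC/iΔEC (-0.02, interval -0.75 to 0.72). Its value was -0.22 without iΔEC/iΔEC replicate 3 and 0.29 without loxP/loxP replicate 3. A block on the pair lowered its SE from 0.31 to 0.13 without a call (limma, adjusted p = 0.986). The library numbered 3 was the high one in both groups. Ch25h was at 106.9, 85.9 and 46.7 FPKM in loxP/loxP and at 103.7, 103.4 and 101.6 FPKM in iΔEC/iΔEC (0.44, interval -0.26 to 1.14). The spread of Ch25h lay in the loxP/loxP group, where replicate 3 was low, and the log2 fold change was 0.10 without that library and 0.69 without loxP/loxP replicate 1.

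**Figure D5:**
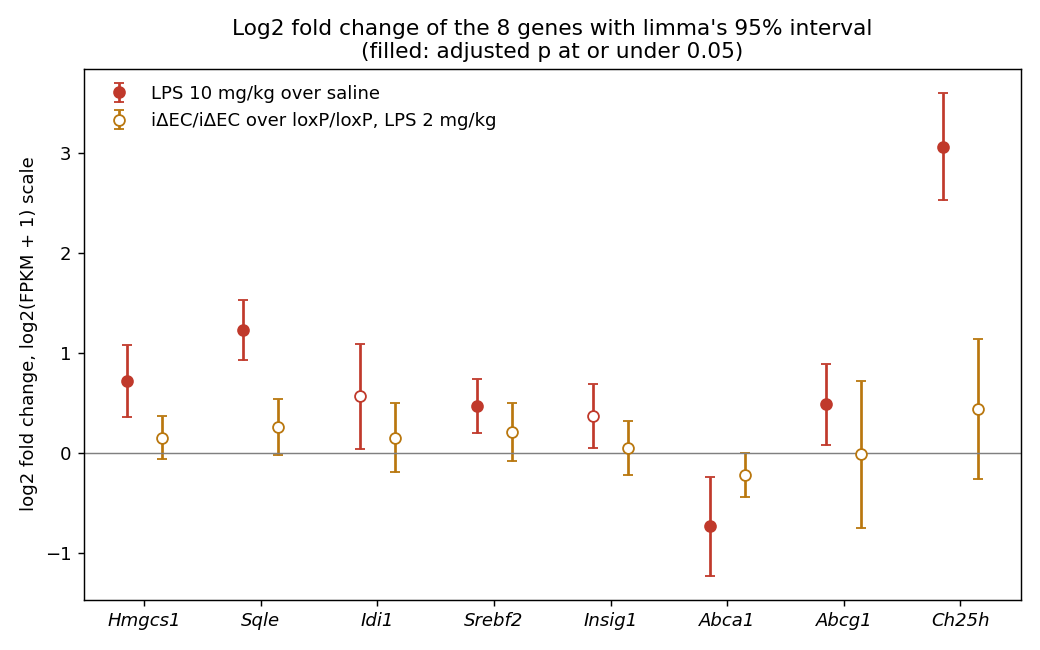
Log2 fold change of FPKM + 1 (vertical axis) of the 8 genes with limma's 95% interval, for 10 mg/kg LPS over saline and for iΔEC/iΔEC over loxP/loxP at 2 mg/kg LPS; filled points were called. Ch25h stood at 3.06 and Abca1 at -0.73 after LPS, and no gene was called in the second experiment.

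The synthesis genes had a median of 0.11 in iΔEC/iΔEC over loxP/loxP, with 18 of 20 above 0, against 0.01 over all genes, of which 53.1% were above 0. Sterol sensing genes were above 0 in 12 of 13 cases (median 0.11) and isoprenoid branch genes in 9 of 12 (0.10). Below 0 were 6 of 7 genes of esterification and storage (median -0.08), 4 of 5 oxysterol genes (-0.24), 8 of 14 of uptake and transport (-0.02), 7 of 13 of efflux and LXR (-0.02) and 6 of 12 of fatty acid synthesis (-0.01). With scaling on endothelial markers the medians of synthesis, sterol sensing and the isoprenoid branch turned to -0.08, -0.10 and -0.11, where that of all genes was -0.18. The smallest p-values of the 8 lists belonged to Hsd17b7, Gpr183 and Icmt. Hsd17b7, a sterol ketoreductase, was at 2.73, 2.97 and 3.16 FPKM in loxP/loxP and at 3.90, 4.47 and 3.72 FPKM in iΔEC/iΔEC (0.35; limma, unadjusted p = 0.0159). Gpr183, the oxysterol receptor, was at 3.04, 3.44 and 3.19 against 1.81, 2.80 and 2.15 FPKM (-0.39; limma, unadjusted p = 0.0288). Icmt, which methylates prenylated proteins, was at 19.4, 18.5 and 18.0 against 22.1, 20.7 and 23.3 FPKM (0.23; limma, unadjusted p = 0.0454). None passed adjustment (adjusted p = 0.962 for each). Over 14 alternatives Hsd17b7 ranged from 0.16 to 0.45 and Gpr183 from -0.55 to -0.29. Icmt ranged from -0.0045, with scaling on endothelial markers, to 0.27.

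Marker lists in the second experiment held no called gene. Endothelial genes were above 0 in 9 of 10 cases (median 0.24). Below 0 were 8 of 8 neutrophil genes (median -0.48), 6 of 6 lymphocyte genes (-0.42), 5 of 6 leukocyte genes (-0.25), 7 of 8 macrophage genes (-0.08), 4 of 6 fibroblast genes (-0.23) and 5 of 7 mural genes (-0.06). The epithelial list was below 0 for 10 of 10 genes (median -0.73), with sums of 947.6, 1706 and 2947 FPKM in loxP/loxP and 444.7, 1155 and 867.7 FPKM in iΔEC/iΔEC. The part of these markers in the values of the 8 genes and of the lists was not tested.

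Levels in the 2 experiments were normalised separately and the doses differed, so they are set side by side with no comparison. Ordered by mean level after saline, the genes ran Srebf2 (15.8 FPKM), Abcg1 (13.8), Insig1 (9.68), Hmgcs1 (8.13), Abca1 (6.62), Ch25h (6.53), Idi1 (2.08) and Sqle (1.596). Neighbours in that order overlapped in their libraries, apart from Ch25h and Idi1. In loxP/loxP mice given LPS, Ch25h came first, at 79.9 ± 30.5 FPKM (SD, n = 3), and Idi1 last, at 4.26 ± 0.633 FPKM (SD, n = 3).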

How the data were processed

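The authors aligned reads to GRCm38/mm10 with HISAT2 (2.0.5), counted them per gene with featureCounts (1.5.0-p3) and deposited FPKM values in a table per experiment. Read numbers recovered from FPKM and gene length were whole (within 0.05) for 100% of values. For 11 genes the tables' symbols differed, and the first table's were used. FPKM were rescaled by median-of-ratios factors, which left the first table as deposited. Genes averaging 0.5 FPKM or more were fitted in limma 3.58.1 (R 4.3.3) on log2(FPKM + 1) with eBayes and a trend, per experiment, and p-values were adjusted by Benjamini-Hochberg over all genes tested. The script was tested on simulated data. No 2 libraries agreed within sampling noise (lowest chi-square per gene between replicates 7.94).

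The 8 genes and all lists were chosen with earlier results of these data known. Named besides the 8 were up to 4 genes of each list with the largest change among those called after LPS, Srebf1, Nr1h3 and Nr1h2, and the 3 smallest p-values in the second experiment. Outside this rule, Tm7sf2, Lbr, Sc5d, Dhcr7, Scap and Insig2 and the genes under the filter were named after their values were seen. Some genes are not reported here by name, though the counts and medians of the lists include them. Alternatives were pseudocount, filter, scaling, limma-voom, a fold limit, leaving out libraries and a replicate block. Same-numbered loxP/loxP and iΔEC/iΔEC libraries deviated together (correlations 0.25, 0.18 and 0.19 over 14945 genes), and differently numbered ones did not (-0.14 to -0.04). Saline 2 and LPS 3, which share no number, reached 0.29, so such values do not establish a pairing. No label states one, and blocking on the numbers called 0 genes. Promoter and miRNA sequences were from RefSeq.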

Additional observations from a re-analysis of the deposited data

Results flagged for a closer look

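Each of the 8 genes and each of the 8 marker lists was examined in the saline and the LPS group, 32 combinations in all. In 3 of them, all of marker lists, a library lay far from the others of its group, where chance alone flags about 1 in 20. The endothelial list of LPS 1 averaged 6.27 on the log2(FPKM + 1) scale, with the next library at 6.998 and the highest at 7.40. The lymphocyte list of saline 3 averaged 1.72, against 3.18 to 3.31 in the other saline libraries. The fibroblast list of saline 3 averaged 2.21, against 2.70 to 2.77. Without LPS 1, 5 of the 8 sterol genes rose, Idi1 included and Abcg1 no longer (limma, adjusted p = 0.0782), and 1 fell, and without saline 3, 7 rose, Idi1 and Insig1 included, and 1 fell.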

How the results depend on the processing

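Of 36 genes followed after LPS, 32 kept their direction in all 18 alternatives with a value, as did 5 of 11 in the second experiment (14 alternatives). The changes of filter leave a fold change as it is, as do the deposited FPKM in the first experiment. Those alternatives could not turn a direction, and their agreement carries no information on it. Scaling on endothelial markers called 7389 genes higher and 766 lower (90.6% of calls higher, against 55.5% as analysed and 45.4% after quantile normalisation), and a log2 limit of 1 called 1768 and 1011, against 4399 and 3529. Of the 8 genes, 7 rose with endothelial scaling, Idi1 and Insig1 included, 6 with a filter at 1 FPKM, 3 after quantile normalisation, 2 with the fold limit and 3 with a replicate block. None of them fell with endothelial scaling, the fold limit (0) or the block (0), and leaving out each library gave 4 to 7 higher and 0 to 1 lower. Of the synthesis list 2 rose with the fold limit, and 2 fell after quantile normalisation, 0 with endothelial scaling and 0 with the fold limit. Of efflux and LXR, 3 rose and 5 fell after quantile normalisation, 8 and 0 with endothelial scaling and 2 and 1 with the fold limit, and the replicate block left 1 lower.

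Endothelial scaling turned Mbtps1 (0.34), Cyp39a1 (0.079) and Nr1h2 (0.57) after LPS, and quantile normalisation turned Nfe2l1 (-0.17). In the second experiment endothelial scaling turned Hmgcs1 (-0.078), Idi1 (-0.044), Srebf2 (-0.025), Insig1 (-0.18) and Icmt (-0.0045). Leaving out each library gave Insig1 -0.037 (without iΔEC/iΔEC replicate 2) to 0.11, and Abcg1 -0.22 (without iΔEC/iΔEC replicate 3) to 0.29 (without loxP/loxP replicate 3). The cause was not tested. Saline and LPS libraries share replicate numbers only by name (same-number correlations 0.097, -0.16, -0.21 and -0.12); the replicate block, which leaves out LPS 5 and 6, called 3418 genes higher and 2587 lower, with Srebf2, Abcg1 and Abca1 not called (adjusted p = 0.0543, 0.105 and 0.0731 in limma). The block changed no call in the second experiment. Fdps and 4 efflux genes, among others, lay under the filter of a mean of 0.5 FPKM and were not tested.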

Other observations

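After removing group means, the mean of Hmgcs1, Sqle and Idi1 over the 16 libraries was most like Lins1 (Pearson r = 0.89), Mmab (0.89), Maob (0.86) and Chst2 (0.86) among 12325 genes. Insig1 ranked 37 with r = 0.77, Srebf2 stood at 0.55, Abca1 at -0.49, Abcg1 at 0.14 and Ch25h at -0.04. For Abca1 the most alike were Gm26115 (0.91), Zeb2 (0.91), Kcna3 (0.89), Traf3 (0.89) and Gm26049 (0.89). These correlations describe libraries that share composition and depth, and no p is given.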
